A study of Aspergillus fumigatus with 12 samples.

Results

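The 95 genes described here had high transcript levels in fungal mycelium grown with the azo dye Ponceau 2R alone and lower levels when sinapic acid was present as well. They were chosen by measured values, among 10276 genes of the series. Each had a mean of 5 to under 1000 FPKM (fragments per kilobase of gene, scaled to the depth of the library) over the 12 libraries. Levels were taken as group means of log2(FPKM + 1). The dye cultures (P2R) had to lie at least 0.8 above basic medium (CK), a difference called D. The cultures with both compounds (P2R+SA) had to lie at least 0.8 below P2R, and cultures with sinapic acid alone (SA) no more than 0.5 below CK. The differences of SA and of P2R+SA from CK are called S and B, so the fall from the dye level is B - D. Of 7216 genes in the FPKM window, 574 had a D of at least 0.8, 522 of these also met the limit on S, and 95 of the 522 met the limit on B - D.

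The series title names Trametes hirsuta strain X-13, while the organism field of the labels gives Aspergillus fumigatus. Mycelium was grown on basic medium alone (CK), or on it with Ponceau 2R (P2R), with sinapic acid (SA) or with both (P2R+SA), and each of these 4 groups has 3 libraries. The labels used here state no doses and do not say if replicates are separate cultures, so the spread between them may be technical in part. Fewer cells making a transcript and less of it per cell cannot be told apart in RNA of whole mycelium. The series design gives 48 h for every group, whereas column headers of the library files hold 36 for CK and P2R and 48 for SA and P2R+SA, and what these numbers mark is not explained there. Sinapic acid and this number cannot be told apart in any value of S, B or B - D below, whereas D compares libraries with the same number. The P2R+SA headers alone also contain a 4 in front of SA, which is not explained either.

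White-rot fungi such as Trametes break down lignin with secreted laccases and peroxidases, and these enzymes also attack azo dyes, whose colour comes from a nitrogen double bond between aromatic rings. Sinapic acid is a plant phenolic acid with methoxy groups on its ring, related to the building blocks of lignin. Small phenolics of this kind are substrates of laccase, and their oxidised forms can carry electrons to molecules that the enzyme itself attacks poorly. Fungi also take up and degrade aromatic compounds inside the cell. The deposited tables give gene IDs without names or products, and 0 of the 10276 IDs matched the Aspergillus fumigatus reference table. No role is therefore given to any of the genes, and each is called by its ID.

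In the typical gene of the 95, the dye level stood well above that of the other groups and most of that excess was missing when sinapic acid was added. The median level was 22.2 FPKM for CK, 76.1 FPKM for P2R, 31.7 FPKM for SA and 33.9 FPKM for P2R+SA. The median D was 1.55 log2 units (range 0.80 to 4.01) and the median B - D was -1.13 (range -2.89 to -0.81). The median S was 0.12 and the median B 0.35. Over all 9240 genes tested, the corresponding medians were -0.09 for D, -0.03 for B - D, -0.04 for S and -0.11 for B. The median gene kept 20.7% of its dye-related log2 difference in P2R+SA, with quartiles of -10.4% and 39.2%. These values describe how the genes were picked, and they carry no test.

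**Figure D1:**
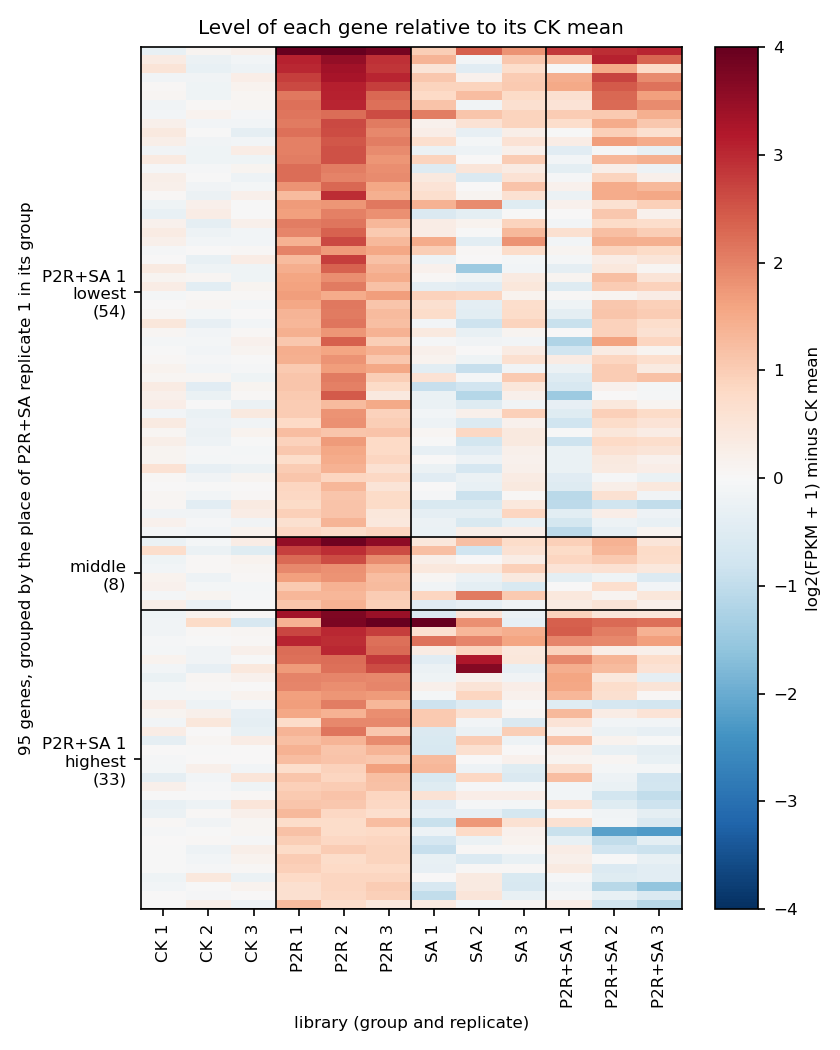
Each row is 1 of the 95 genes and each column 1 of the 12 libraries; colour gives log2(FPKM + 1) minus the mean of the gene's 3 CK libraries, red for higher and blue for lower. Rows are grouped by whether P2R+SA replicate 1 was the lowest (54 genes), the middle (8) or the highest (33) library of its group, and ordered by D within each; the P2R columns are red throughout, and the last 3 columns differ between the upper and the lower block.

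The separation of the groups held in most single libraries. In 95 of 95 genes all 3 P2R libraries exceeded all 3 CK libraries, against 23.9% of all tested genes. In 84 of 95 all 3 P2R+SA libraries were below all 3 P2R libraries, against 20.5% of tested genes. In 74 of 95 the 3 P2R libraries stood above all 9 others, against 6.1% of tested genes. The rule used these group means, so nothing is read from the excess over the background. In the remaining 21 genes at least 1 library of another group reached into the P2R range.

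The genes were spread over a wide range of levels. Their means over all libraries ran from 5.26 to 498 FPKM, with 11 genes under 10 FPKM and 28 at 100 FPKM or more. The least covered library of each gene held a median of 604 fragments, and the lowest value of all was 27. Coding lengths ran from 210 to 4437 bp with a median of 1254 bp. The 427 other dye-raised genes, which met the same limits on D, S and FPKM but not on B - D, had a median coding length of 1242 bp and a median CK level of 22.5 FPKM. For all genes in the FPKM window these medians were 1365 bp and 31.3 FPKM.

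A00640, with a coding length of 1068 bp, had the largest D of the 95 and also the highest B. Its 3 libraries read 7.35, 10.1 and 10.9 FPKM in CK and 164, 189.6 and 147 FPKM in P2R. They read 19.4, 53.3 and 34.9 FPKM in SA and 71.6, 78.7 and 84.5 FPKM in P2R+SA. The 4 groups did not overlap, and their order was CK, SA, P2R+SA, P2R. Group means were 9.44 ± 1.85 FPKM (CK), 167 ± 21.7 FPKM (P2R), 35.9 ± 17.0 FPKM (SA) and 78.2 ± 6.46 FPKM (P2R+SA; SD, n = 3), so P2R was 17.7-fold above CK and 2.13-fold above P2R+SA. A00640 thus kept 73.2% of its log2 difference from CK, one of the largest shares of the set. Its fall itself was not small, since its B - D of -1.08 was near the median of -1.13.

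A04666 (1620 bp) combined the second largest D, 3.67, with the second most negative B - D, -2.73. It read 22.5, 25.1 and 32.6 FPKM in CK and 311, 409 and 329 in P2R, against 36.4, 62.0 and 44.4 in SA and 51.6, 70.4 and 37.6 with both compounds. The P2R libraries stood alone, and the P2R+SA libraries fell within or just above the range of SA. The P2R mean of 349.7 ± 52.2 FPKM was 6.58-fold that of P2R+SA, 53.2 ± 16.4 FPKM (SD, n = 3). P2R+SA and SA all lay above the highest CK library.

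A10291, a short gene of 534 bp, had the most negative B - D, -2.89. Its libraries read 12.9, 16.2 and 15.3 FPKM in CK and 161, 208 and 171 in P2R, against 9.59, 21.6 and 12.2 in SA and 29.0, 20.9 and 20.6 with both compounds. The SA values spanned those of CK, so sinapic acid alone left no difference larger than the replicate spread. All 3 P2R+SA libraries were still above all 3 CK libraries. The mean was 180.0 ± 24.4 FPKM in P2R and 23.5 ± 4.77 in P2R+SA (SD, n = 3), 7.66-fold apart.

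**Figure D2:**
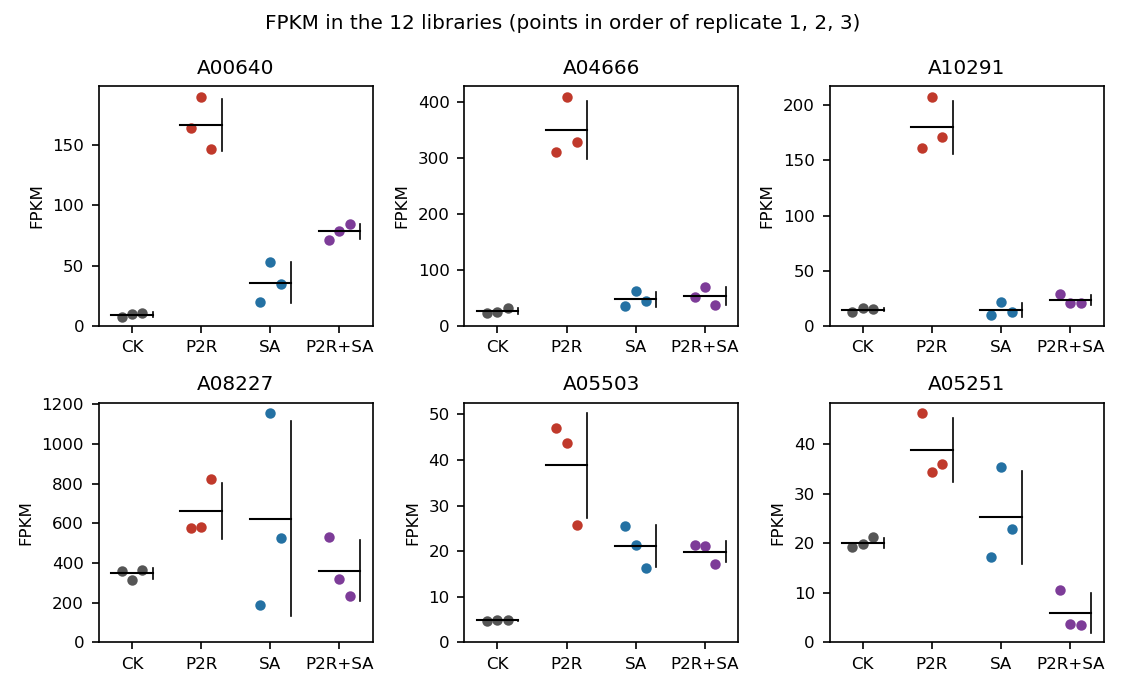
FPKM (linear axis from 0) of the 6 genes picked by rank: the largest 2 values of D, the 2 most negative values of B - D, the highest mean level, the largest S and the lowest and highest B. Points are libraries, horizontal bars group means and vertical bars 1 SD (n = 3); P2R is the highest group mean in each panel, while A05251 in P2R+SA lies below CK and A08227 in SA runs from 186 to 1157 FPKM.

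With both compounds present, 50 of the 95 genes lay within 0.5 log2 units of CK, 38 lay more than 0.5 above it and 7 more than 0.5 below it. The quartiles of B were -0.13 and 0.74 over the 95 genes and -0.43 and 0.25 over all tested genes. Most genes of the series thus also lay within 0.5 of CK. Between P2R+SA and CK, 25 genes had non-overlapping libraries with P2R+SA higher and 8 with P2R+SA lower, against 22.5% and 32.1% of all tested genes. The share with P2R+SA higher, 26.3%, was thus close to the background. After rescaling the libraries by median-of-ratios factors, 4 genes instead of 7 lay more than 0.5 below CK, since the median of all tested genes in B moved from -0.11 to -0.005. P2R+SA was the lowest of the 4 group means in 26 genes, SA in 22 and CK in 47.

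**Figure D3:**
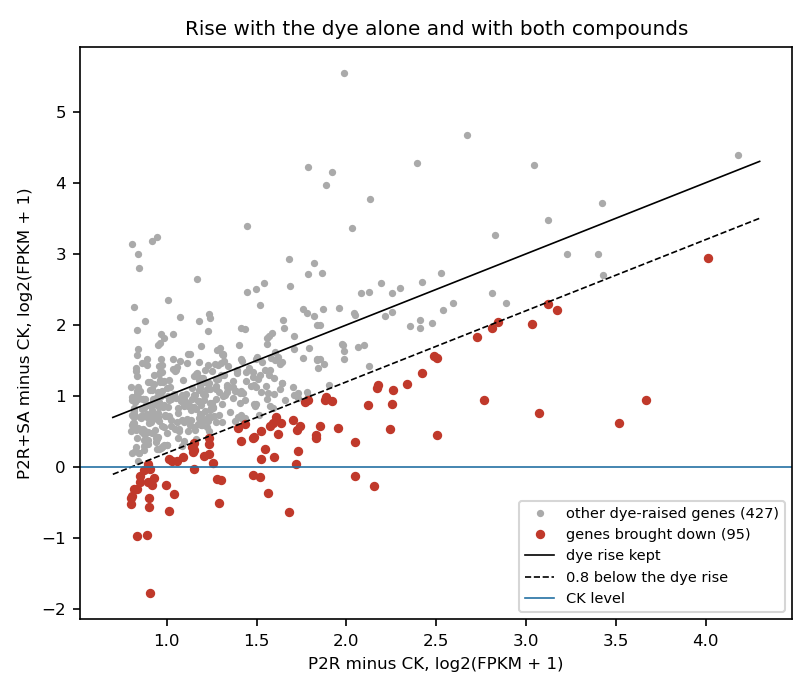
Horizontal axis, P2R minus CK; vertical axis, P2R+SA minus CK, both in log2(FPKM + 1) and both taken from the same CK libraries. The 95 genes (red) lie below the dashed line, 0.8 under the line of an unaltered dye difference, and the 427 other dye-raised genes (grey) above it with no gap between them.

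The set has no natural edge among the dye-raised genes. A02214 lay just inside the limit on B - D at -0.81 and A00888 just outside at -0.78, and within 0.1 of that limit there were 15 genes on the inner side and 18 on the outer. For D, A06677 lay just inside at 0.80 and A07427 just outside at 0.79. For S, A01420 lay just inside at -0.49 and A06966 just outside at -0.51. The share of dye-raised genes that met the limit on B - D was 11.95% for D from 0.8 to under 1 (19 of 159), 12.02% from 1 to under 1.5 (25 of 208), 27.1% from 1.5 to under 2 (26 of 96), 40% from 2 to under 3 (18 of 45) and 50% at 3 or more (7 of 14). P2R enters D and B - D with opposite signs, so a larger D by itself favours meeting the limit.

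On medium with sinapic acid alone, S was within 0.5 log2 units of CK in 69 genes and above 0.5 in 26, of which 12 reached 0.8. The rule admitted no gene with S at or under -0.5. The quartiles of S were -0.13 and 0.54 over the 95 genes and -0.26 and 0.21 over all tested genes, so most genes of the series also lay within 0.5 of CK. The 3 SA libraries were all above CK in 14 genes (14.7%) and all below in 5, against 14.6% and 24.2% of tested genes, so the higher share was at the background. In 47 genes both SA and P2R+SA were within 0.5 of CK. In 15 genes SA was within 0.5 of CK while P2R+SA stayed more than 0.5 above it, and in 23 genes both stood more than 0.5 above CK.

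A05503 (420 bp) had the largest S, 1.90. Its libraries read 4.70, 4.82 and 5.01 FPKM in CK and 47.0, 43.8 and 25.8 in P2R, against 25.5, 21.4 and 16.4 in SA and 21.4, 21.2 and 17.2 with both compounds. All 9 libraries with either compound were above CK, and P2R+SA and SA overlapped, so the level with both compounds was that of sinapic acid alone within the spread. The lowest P2R library, 25.8 FPKM, lay only just above the highest SA library, 25.5 FPKM.

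In some genes with a high S the value rested largely on 1 library. The following pair was picked after its values were seen. A06240 read 5.404, 93.5 and 4.96 FPKM in SA, against 5.95, 4.97 and 9.08 in CK, so SA replicate 2 alone exceeded CK. A10818 read 7.72, 110.3 and 15.3 FPKM in SA and 12.2, 9.88 and 10.7 in CK, with replicate 1 below CK and replicates 2 and 3 above.

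A08227 (462 bp), the most abundant of the 95 at a mean of 498 FPKM, showed the same feature. It read 359.7, 317 and 366 FPKM in CK and 577, 581 and 824 in P2R, against 186, 1157 and 526 in SA and 531, 319 and 233 with both compounds. The P2R libraries were all above CK and above P2R+SA, whereas SA covered a range wider than all other groups together. Its SA mean was 623 ± 493 FPKM (SD, n = 3), against 347 ± 26.7 in CK, a difference smaller than the spread.

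**Figure D4:**
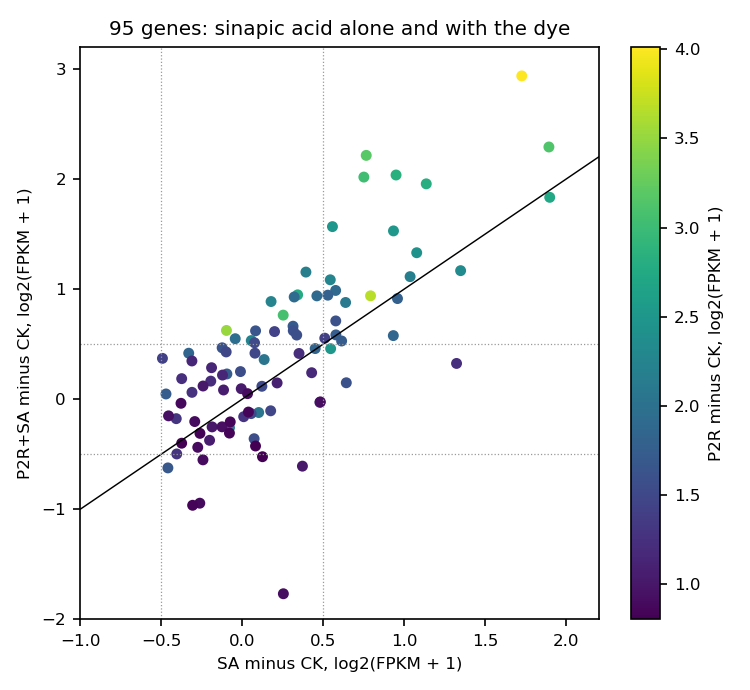
Horizontal axis, SA minus CK; vertical axis, P2R+SA minus CK, both in log2(FPKM + 1) and both taken from the same CK libraries, so that part of any joint spread is shared error. Each of the 95 points is a gene, colour gives P2R minus CK, dotted lines mark 0.5 above and below CK, and the solid line marks equal levels in SA and P2R+SA; 63 genes lie within 0.5 of that line.

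On medium with sinapic acid, most of these genes had similar mean levels with and without the dye, as did most tested genes. P2R+SA lay within 0.5 log2 units of SA in 63 of 95 genes, more than 0.5 above it in 23 and more than 0.5 below it in 9. The libraries did not overlap in 8 genes with P2R+SA higher and in 4 with P2R+SA lower, against 8.04% and 10.9% of tested genes. The median difference between P2R+SA and SA was 0.20 log2 units over the 95 genes, -0.06 over all tested genes and 0.51 over the 427 other dye-raised genes. Its quartiles were -0.16 and 0.48 over the 95 genes and -0.25 and 0.14 over all tested genes. Most genes of the series thus also lay within 0.5 of SA. These values also rest on group means that the rule used.

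In 4 genes the difference made by the dye had opposite signs without and with sinapic acid: all P2R libraries were above all CK libraries and all P2R+SA libraries below all SA libraries. These were A05250, A05251, A05353 and A08577, of which only A05251 was named by rank and the others were picked after their values were seen. Of all tested genes, 0.368% had this arrangement. The rule favours it, since it asks for P2R above CK and for P2R+SA below P2R, so nothing is read from the excess. A05251 (1578 bp) had the lowest B of the set, -1.77. It read 19.3, 19.9 and 21.2 FPKM in CK and 46.2, 34.5 and 36.0 in P2R, against 17.3, 35.5 and 22.9 in SA and 10.5, 3.66 and 3.44 with both compounds. P2R+SA was thus below every other library of the series for this gene, and its mean of 5.87 ± 4.03 FPKM was 6.62-fold under the P2R mean of 38.9 ± 6.40 (SD, n = 3).

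A05250 (1632 bp) carries the preceding ID number and showed the same order at a higher level. It read 161, 159 and 166 FPKM in CK and 337, 358 and 293 in P2R, against 241, 196 and 196 in SA and 150.003, 97.0 and 81.3 with both compounds. Its 4 groups did not overlap, with P2R+SA lowest and P2R highest. A05353 (1245 bp) had means of 8.01 ± 0.653 FPKM (CK), 20.3 ± 2.60 FPKM (P2R), 23.2 ± 11.8 FPKM (SA) and 10.3 ± 1.45 FPKM (P2R+SA; SD, n = 3), so each compound alone stood above the 2 together. A08577 (2403 bp) had means of 36.1 ± 9.70, 66.5 ± 10.2, 31.0 ± 14.2 and 17.8 ± 1.67 FPKM in the same order (SD, n = 3).

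A05252 follows A05251 in number and was also one of the 95, but its libraries did not move with those of its neighbours. It read 97.8, 259 and 61.3 FPKM in P2R and 16.4, 47.3 and 45.4 in P2R+SA, so that P2R+SA replicate 1 was its lowest library, whereas it was the highest P2R+SA library of A05250 and A05251. The lowest correlation of deviations from group means among the 3 genes was -0.67 over the 12 libraries. Of the 95 genes, 7 (7.37%) had another of the set at the adjacent ID number, against 1.80% of the genes in the FPKM window. Within 5 numbers it was 16 (16.8%) against 7.62%. Of the 427 other dye-raised genes, 60 (14.05%) had another of those 427 at the adjacent number, against 8.43% of the genes in the window. Within 5 numbers it was 172 (40.3%) against 32.8%. No source used here says whether ID numbers follow position in the genome, and the nearness was not tested.

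The rule set no limit on the spread between replicates, and it was large in this set. A mean of 3 widely spread libraries crosses a limit more easily, so the choice itself can favour a larger spread. The median SD of log2(FPKM + 1) between the 3 libraries was 0.19 for CK and 0.29 for P2R, against 0.48 for SA and 0.47 for P2R+SA. The 427 other dye-raised genes had 0.13, 0.24, 0.40 and 0.41, and all tested genes 0.10, 0.13, 0.22 and 0.21. In all 4 groups the 95 genes thus had a slightly larger median spread than the other dye-raised genes, and both had a larger one than tested genes as a whole. No test was made of this difference, since genes of the same libraries are not replicates.

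Replicates deviated in a shared manner. P2R replicate 2 was the highest P2R library in 58 of 95 genes (61.1%), as it was in 284 of the 427 other dye-raised genes (66.5%), against 2520 of 9240 tested genes (27.3%). Its median deviation from the P2R mean was 0.23 log2 units over the 95 genes and -0.06 over tested genes. Because P2R enters both limits, a high P2R library favours being chosen. Without P2R replicate 2 the same rule chose 74 genes, 64 of them among the 95. Whether the excess in this library is technical was not tested.

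P2R+SA replicate 1 divided the set. It was the lowest library of its group in 54 genes, the highest in 33 and the middle one in 8. A low value there was not particular to the set. This library lay above its group mean in 37.9% of the 95 genes, 13.1% of the 427 other dye-raised genes and 66.5% of tested genes. A05298 and A06610, picked as examples after their values were seen, show this library lowest and highest. A05298 (1530 bp) read 147, 523 and 446 FPKM in P2R+SA, 255, 155 and 503 in SA and 682, 1200.2 and 624 in P2R. A06610 (1728 bp) read 431, 190.1 and 111 FPKM in P2R+SA, 128, 162 and 128 in SA and 565, 560.4 and 540.3 in P2R. In A05298 replicate 1 alone was below all CK libraries (376, 215 and 252 FPKM), and in A06610 it was far above the CK libraries (119, 150.4 and 162 FPKM) and replicate 2 just above them.

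**Figure D5:**
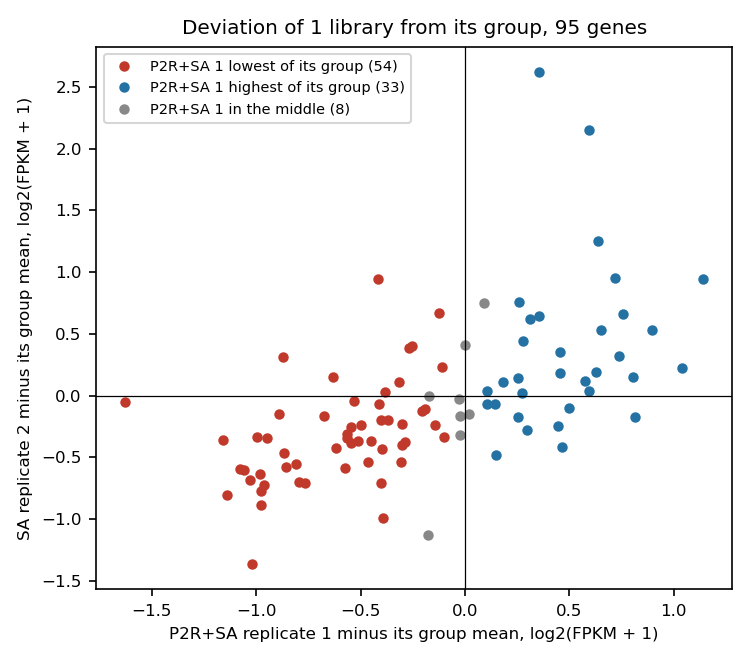
Horizontal axis, P2R+SA replicate 1 minus the mean of its group; vertical axis, SA replicate 2 minus the mean of its group, both in log2(FPKM + 1). Points are the 95 genes, coloured by the place of P2R+SA replicate 1 in its group (lowest, 54; highest, 33; middle, 8); genes low in the one library tended to be low in the other.

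The same division ran through the SA libraries, which share no library with P2R+SA. SA replicate 2 was the lowest SA library in 36 of the 54 genes and the highest in 6. Among the 33 genes it was the lowest in 3 and the highest in 18. SA replicate 2 lay above its group mean in 36.8% of the 95 genes, 21.1% of the other dye-raised genes and 44.0% of tested genes. Across the 95 genes the deviations of P2R+SA replicate 1 and SA replicate 2 correlated at a Pearson r of 0.59, and across the 9240 tested genes at 0.44; genes of the same libraries are not independent, so no p is given. P2R replicate 2 was the highest of its group in 44 of the 54 genes and in 8 of the 33. Deviations from group means over the 12 libraries correlated at a median of 0.66 between pairs within the 54 genes, 0.37 within the 33 and -0.37 across them. The median was 0.11 over all pairs of the 95 genes and 0.46 over all pairs of the other dye-raised genes. The 54 and 33 genes were separated on P2R+SA replicate 1 itself, which is part of these correlations.

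How far the P2R+SA level lay below the dye level changed in both blocks when P2R+SA replicate 1 was left out. Over the 54 genes the median B - D was -1.07 with all libraries and -0.75 without P2R+SA replicate 1, and 24 of the 54 still met the rule. Over the 33 genes it was -1.15 and -1.42. The blocks were defined by this library, so leaving it out had to raise B and B - D in the 54 genes and lower them in the 33. The size of each shift follows from how far this library lay from its group mean. The median B was 0.42 with it and 0.76 without it in the 54 genes, and -0.03 and -0.24 in the 33. B - D stayed below 0 in all 95 genes without that library.

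Each of the 12 libraries was left out in turn and the rule applied again. Between 68 genes (without P2R+SA replicate 1) and 122 genes (without P2R+SA replicate 2) were then chosen. Of the 95, 34 were chosen in all 12 cases and 79 in at least 10, and no gene in fewer than 7. A00640, A04666, A10291, A05250 and A05353 were chosen in all 12. A05251 was chosen in 11, A08227 in 10, and A05503, A05252 and A08577 in 9.

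For reference, limma was fitted to log2(FPKM + 1) of all 9240 tested genes, with Benjamini-Hochberg adjusted p under 0.05 as a call. The 95 genes all passed the filter on low values, and the window of mean FPKM made that likely. P2R was higher than CK in 83 of 95, against 12.3% of tested genes, and P2R+SA lower than P2R in 70, against 11.3%. SA was higher than CK in 9 and lower in 0, against 6.79% and 9.84%; limma-voom on recovered fragments also found 0 lower, and 2 were lower at an unadjusted p under 0.05 with either tool. P2R+SA was higher than CK in 17 and lower in 5, against 15.2% and 24.7%. P2R+SA was higher than SA in 5 and lower in 3, against 2.88% and 3.16%. The interaction, which is the difference between the effects of sinapic acid with and without the dye, was negative in 24, against 0.693%. The group means in all 6 comparisons entered the choice of the genes, so these counts are descriptions and not support.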

How the data were processed

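The authors deposited FPKM values for 12 libraries, in 1 series-wide table and 12 library files that differ from it by at most 4.9e-06 FPKM. Tools listed without roles, per the submitters' processing notes, are R 3.2.0, HTSeq, HISAT2 and fastp; build, annotation and strand setting: not given in the sources used here. Members and lists were chosen with earlier results of these data known. The series-wide table was used. Whole fragments were recovered from the extra digits of the library files for 10276 of 10276 genes (100%, tolerance 0.0001 fragments), giving 35919382 to 39408714 fragments per library. Coding lengths, sought as multiples of 3, were recovered for 9854 genes.

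Group means of log2(FPKM + 1), a pseudocount of 1 that understates changes of low genes, gave D, S and B. limma 3.58.1 in R 4.3.3, with an intensity trend and no block, was fitted to the 9240 genes that reached 1 FPKM in at least 3 libraries, and was checked on simulated data. The 6 genes named by rank were the 2 largest D, the 2 most negative B - D, the highest mean FPKM, the largest S, and the lowest and highest B. Same-numbered libraries did not deviate together throughout (r above 0.1 in 3 of 18 pairs), so the numbers were not taken as pairs. Alternatives were the pseudocount, 2 scalings, the thresholds, the filter, the block, weights, voom and libraries left out.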

Additional observations from a re-analysis of the deposited data

Results flagged for a closer look

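For 24 of the 95 genes the test of the interaction passed (limma, Benjamini-Hochberg adjusted p under 0.05), a difference between what sinapic acid did on dye medium and on basic medium. The interaction was negative in all 24, and 0.693% of all tested genes had a negative call. The rule for choosing the genes favours this, and the header numbers 36 and 48 go with sinapic acid in every library.

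In 4 of the 95 genes every P2R library was above every CK library while every P2R+SA library was below every SA library. The same arrangement was seen in 0.368% of all tested genes. It was not tested by itself, and the rule for choosing the genes favours it too. Among the genes named by rank, A05251 is 1 of the 4: P2R+SA minus SA was -2.02 log2 units and P2R minus CK 0.90.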

How the results depend on the processing

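Under every alternative run, the median D of the 95 genes stayed between 1.34 and 1.71 and the median B - D between -1.28 and -1.04. The number of genes chosen was 167 and 49 with limits of 0.6 and 1 in place of 0.8 on D and B - D, and 59 with S of 0 or higher. It was 68 to 122 with 1 library left out, 71 when the first libraries of SA and P2R+SA were both dropped (62 of the 95 kept), 101 with a pseudocount of 0.1, also 101 with median-of-ratios factors, and 83 with quantile normalization. The genes more than 0.5 below CK in P2R+SA numbered 4 with either scaling in place of 7; counts by the level of P2R+SA against CK, and of P2R above all other libraries (67 to 79), were recomputed as alternatives chosen after seeing the data.

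With 1 library left out, calls among the 95 genes ran from 15 to 42 for P2R+SA against CK (42 without P2R+SA replicate 1), from 1 to 22 for P2R+SA against SA, and from 15 to 31 in the interaction (24 with all libraries, and 15 without CK replicate 2, CK replicate 3 or P2R replicate 1). Calls among all 9240 tested genes also changed, from 2389 to 4740, from 148 to 1888 and from 36 to 330. With all libraries they numbered 3689, 558 and 106. P2R+SA against SA gave 8 calls over all libraries. Leaving out P2R+SA replicate 1, 2 or 3 gave 22, 1 or 3; leaving out CK replicate 1, 2 or 3 gave 5, 5 or 4, and P2R replicate 1 gave 4. It gave 5 with no filter, 4 under the replicate block, 6 by limma-voom over all libraries, and 0 by limma on those 2 groups alone. In that last fit 10 higher and 4 lower of the 95 had an unadjusted p under 0.05. Of the 9240 tested genes, the same fit called 32, and 1249 had an unadjusted p under 0.05. With array quality weights the counts for P2R+SA against CK, P2R+SA against SA and the interaction were 67, 23 and 45. Over the 9240 tested genes the same weights gave 6656, 2020 and 494 calls. With both replicate 1 libraries left out the counts were 46, 24 and 40, against 5182, 2249 and 345 of the tested genes. The causes were not tested. P2R+SA against CK had 21 higher and 3 lower with quantile normalization, against 17 and 5. Under the replicate block, calls against CK numbered 79 for P2R, 8 for SA and 19 for P2R+SA, with 63 for P2R+SA against P2R and 19 in the interaction. With 1 library left out, P2R against CK gave from 60 (without P2R replicate 2) to 91 calls (without P2R+SA replicate 1), and 83 with all. P2R+SA against P2R gave from 49 (without P2R replicate 2) to 75 (without SA replicate 2), and 70 with all. Of 384 recomputed values of the named genes, 2 moved by more than the pooled SD of the groups compared. Both were for B of A05503 (2.01 with a pseudocount of 0.1 and 2.01 after quantile normalization). Leaving out 1 of 3 libraries cannot shift a value that far, so only the pseudocount and the 2 scalings could have moved one. The count therefore says nothing on how far the values depend on single libraries.

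With 3 libraries a group, a single library can set S or B of a gene. The least covered library of a gene held 27 fragments at the lowest and 604 at the median.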
